A study of Mus musculus with 12 samples.

Results

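Replacement histone variants are histones that cells load onto DNA outside of replication, in place of the canonical histones made in S phase. The 9 genes described here are H3f3a and H3f3b (H3.3), H2afz and H2afv (H2A.Z), H2afy and H2afy2 (macroH2A), H2afx (H2A.X), H1f0 (H1.0) and H1fx (H1X). They were chosen by symbol, as replication-independent histone genes to set against the replication-dependent ones, and all 9 were found among the 54735 genes listed for each of the 12 embryos. RNA came from the dorsal telencephalon, the part of the forebrain that forms the cortex, of C57/Bl6 mouse embryos at stage E13.5. The genotypes varied in floxed Rnu11, which encodes the U11 RNA of the minor spliceosome (the complex that removes a rare class of introns), and in floxed Trp53, which encodes p53. Control embryos were Rnu11 wt/flx and Trp53 wt/wt. The Rnu11 mutants (cKO) were Rnu11 flx/flx and Trp53 wt/wt, and the double mutants (dKO) were Rnu11 flx/flx and Trp53 flx/flx. There were 4 embryos per genotype, and every one carried Emx1-Cre, so controls were heterozygous for the Rnu11 deletion. Emx1-Cre acts in progenitors of the dorsal forebrain and the cells that descend from them, and the blood, vessel and microglial cells of the dissected tissue arise elsewhere. The comparisons address how these genes behave when U11 is lost, and when p53 is lost with it.

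The canonical histones come from clustered genes without introns, whose mRNAs end in a stem-loop instead of a poly(A) tail and are made mainly in S phase. Replacement variants come from single genes, most of them with introns and polyadenylated mRNAs, and are made through the cell cycle and in cells that have stopped dividing. H3.3 is placed at active genes by HIRA and at silent repeats by DAXX and ATRX, H2A.Z is exchanged at promoters by the SRCAP and p400 complexes, macroH2A is known from silenced chromatin, H2A.X is phosphorylated at DNA breaks, and the linker histone H1.0 builds up as cells differentiate.

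The 3' end sequences set the 2 kinds of gene apart and are shown for that reason. The stem-loop was searched in the sense strand of GENCODE M21 coding transcripts as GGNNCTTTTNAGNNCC, and its form most common among the replication-dependent genes, in 26 of them, is given first with the match found in H2afx (loop in capitals).
Hist1h2ab: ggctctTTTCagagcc
H2afx: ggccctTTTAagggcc
The motif was in 44 of the 67 replication-dependent genes with coding transcripts (65.7%) and in 72 of all 21877 protein-coding genes (0.329%). Of the 9 variants, 1 had it: in H2afx it lay 822 bases before the end of a 1384-base transcript, while in the 44 replication-dependent genes the median distance to the transcript end was 112.5 bases. A poly(A) signal, AATAAA or ATTAAA, stood in the last 60 bases of a coding transcript of 8 of the 9 variants, the exception being H2afy, beside 17 of the 67 replication-dependent genes (25.4%) and 78.7% of all protein-coding genes. H2afx thus held both kinds of 3' sequence in 1 transcript model.

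Upstream sequences are shown for 3 variants: H1f0, the variant called on both scales, and H3f3a and H3f3b, a pair of genes for the same H3.3 protein. Each is the 250 bases before the RefSeq start (GRCm38.p6), which differs for these genes from the outer bound in GENCODE, 5' to 3' on the gene's strand, with CCAAT or its reverse complement ATTGG, and TATAAA, in capitals.
H1f0, chr15:79027962-79028211, plus strand: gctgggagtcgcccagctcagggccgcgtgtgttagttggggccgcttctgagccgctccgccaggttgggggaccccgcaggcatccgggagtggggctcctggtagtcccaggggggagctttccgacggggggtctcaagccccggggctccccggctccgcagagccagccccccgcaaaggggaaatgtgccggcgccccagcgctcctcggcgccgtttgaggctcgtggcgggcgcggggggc
H3f3a, chr1:180813606-180813855, minus strand: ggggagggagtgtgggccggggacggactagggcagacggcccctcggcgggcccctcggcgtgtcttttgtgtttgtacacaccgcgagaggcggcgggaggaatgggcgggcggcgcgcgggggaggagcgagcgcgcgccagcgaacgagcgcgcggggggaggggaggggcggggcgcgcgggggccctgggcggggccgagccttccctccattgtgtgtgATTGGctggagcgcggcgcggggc
H3f3b, chr11:116024505-116024754, minus strand: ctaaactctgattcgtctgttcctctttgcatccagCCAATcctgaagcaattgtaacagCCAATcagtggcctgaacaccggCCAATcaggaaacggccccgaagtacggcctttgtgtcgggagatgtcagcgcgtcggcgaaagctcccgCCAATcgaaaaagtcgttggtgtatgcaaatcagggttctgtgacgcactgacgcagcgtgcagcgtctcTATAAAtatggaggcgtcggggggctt
H3f3b had 4 CCAAT boxes, the element bound by NF-Y, and a TATAAA, H3f3a had 1 CCAAT box, and H1f0 had none. Of the 8 variants whose promoter was in the RefSeq table (all but H2afx), H2afv also had 4 CCAAT boxes, with 1 TTTGAA, the cell-cycle element of the DREAM complex. H2afz had 2 CCAAT boxes and 1 CACGTG E-box, and H2afy, H2afy2 and H1fx had none of the motifs searched. Among all 32851 windows of this length, 33.8% held CCAAT on either strand, 2.79% held it 3 or more times, 12.4% held TATAAA, 15.99% TTTGAA and 6.02% CACGTG. The E2F-type motifs TTTCGCGC and TTTGGCGC were in none of the 8 windows, and in 0.256% and 0.417% of all windows. A match is a match of letters and not a bound site.

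Values are TPM, an abundance scaled for gene length that sums to 1000000 in every library and keeps no sequencing depth. The control mean of Rnu11 was 640.5 TPM, against 144 for cKO and 164 for dKO, and Trp53 averaged 3.82, 4.24 and 1.22 TPM, each in the direction of its label. Most genes were higher in cKO: among the 11764 genes that averaged 1 TPM or more, the median difference in log2(TPM + 1) from control was 0.25 in cKO but -0.015 in dKO, and between the mutants it was -0.26. A single structural RNA, Rn7s2, made up 28.2% to 35.4% of each library, and protein-coding genes 14.4% to 19.99%. Each difference is therefore given on 2 scales, the TPM as deposited and the values after each library was shifted to the same median (centred), and a gene is said to have risen or fallen only where both passed an adjusted p of 0.05 in limma. Defining genes of the tissue were all present (7 of 7 pallium genes passed the filter), while the ventral telencephalon list summed to at most 4.98 TPM with 1 of 7 genes passing. The p-values measure the spread between these embryos, for which litters are not given.

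All 9 variants were expressed, and H1f0 was the only one that changed by this criterion. It fell in dKO against control and against cKO, as did 3.3% and 3.83% of all genes tested on both scales. In cKO against control 1.05% of all genes fell and 3.72% rose on both scales, and in dKO 1.75% rose. The cKO embryos gave no variant called on the deposited scale against control, where 35.4% of all genes tested were called, 34.3% higher and 1.09% lower, and 2 of the 9 had an unadjusted p under 0.05. After centring, 2 variants (H2afx and H1f0) were called lower in cKO, with 2.96% of all genes called lower and 6.68% called in all. In dKO against control, 1 variant (H1f0) was called lower on both scales, where 3.4% of genes were lower and 5.19% called as deposited, and 4.69% and 8.43% after centring. In dKO against cKO, 3 variants (H1f0, H2afy2 and H3f3b) were called lower as deposited, where 38.8% of all genes were called lower and 39.4% called, and 1 (H1f0) after centring, with 3.83% lower and 5.93% called. No variant was called higher in any comparison on either scale, where 34.3%, 1.79% and 0.612% of all genes were higher in the 3 comparisons as deposited and 3.72%, 3.74% and 2.1% after centring. In deposited values every dKO embryo lay below every control for 3 variants (H3f3b, H2afz and H1f0), as for 8.44% of all genes, and below every cKO embryo for 3 (H3f3b, H2afy2 and H1f0), as for 32.8% of all genes. On the deposited scale no variant had every cKO embryo below every control, as 0.91% of genes did. After centring this held for 4 of the 9 (H2afx, H2afz, H3f3b and H1f0). The share of all genes is not given on that scale, so whether this count is unusual cannot be read from it. The median difference of the 9 was 0.041, -0.25 and -0.22 as deposited in the 3 comparisons, beside 0.25, -0.015 and -0.26 for all genes, and -0.21, -0.23 and 0.045 after centring, where the median of all genes is close to 0. The cKO and dKO comparisons with control share the same 4 control embryos.

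**Figure D1:**
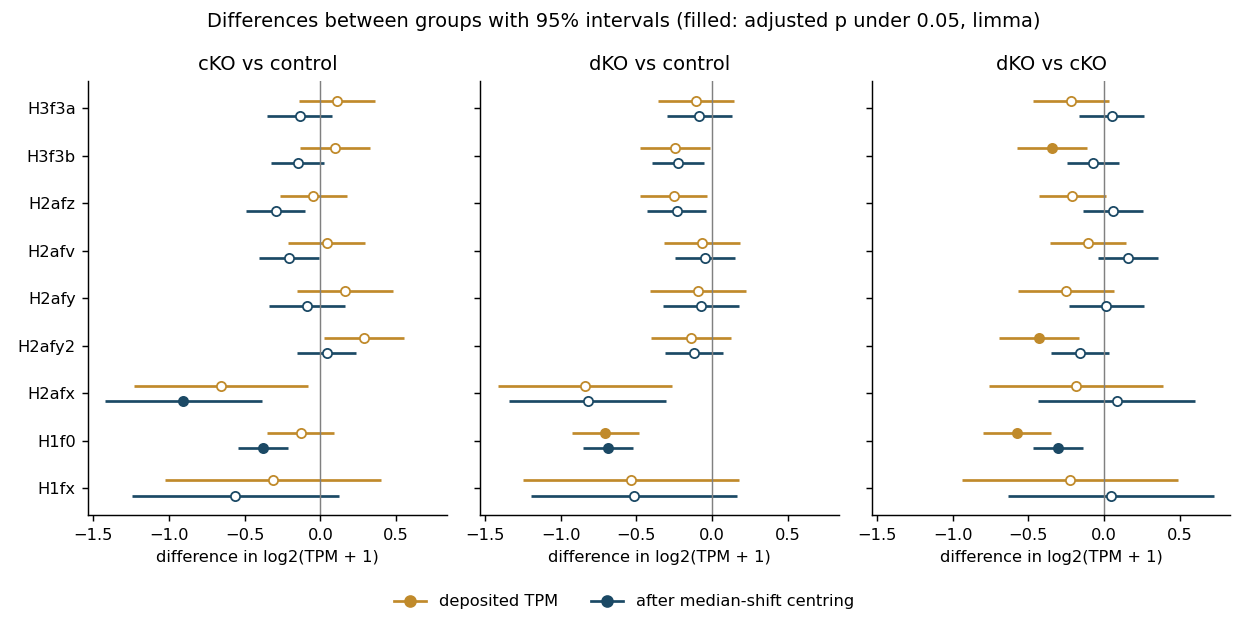
Differences in log2(TPM + 1) for the 9 variants in 3 comparisons, as deposited (ochre) and after centring (blue), with 95% intervals, and filled points where the adjusted p in limma was under 0.05. H1f0 is filled on both scales in both dKO panels, and the cKO panels show how far the 2 scales lie apart.

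In control embryos the order of levels ran from H3f3a at 434 ± 45.0 TPM (SD, n = 4) through H3f3b at 177 ± 8.97, H2afz at 109 ± 9.64, H2afv at 107 ± 8.27, H2afy at 90.2 ± 14.5, H1f0 at 41.8 ± 4.26, H2afx at 27.4 ± 13.6 and H2afy2 at 26.4 ± 3.61 to H1fx at 6.93 ± 4.04. Both H3.3 genes were separate from their neighbours in every embryo, as was H2afy from H1f0 and H2afy2 from H1fx. The values of H2afv overlapped those of H2afz and of H2afy, while every control value of H2afz was above every one of H2afy (lowest 101 and highest 99.5 TPM). Those of H2afx overlapped H1f0 and H2afy2, while H1f0 was above H2afy2 throughout (lowest 35.5 and highest 29.0 TPM).

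**Figure D2:**
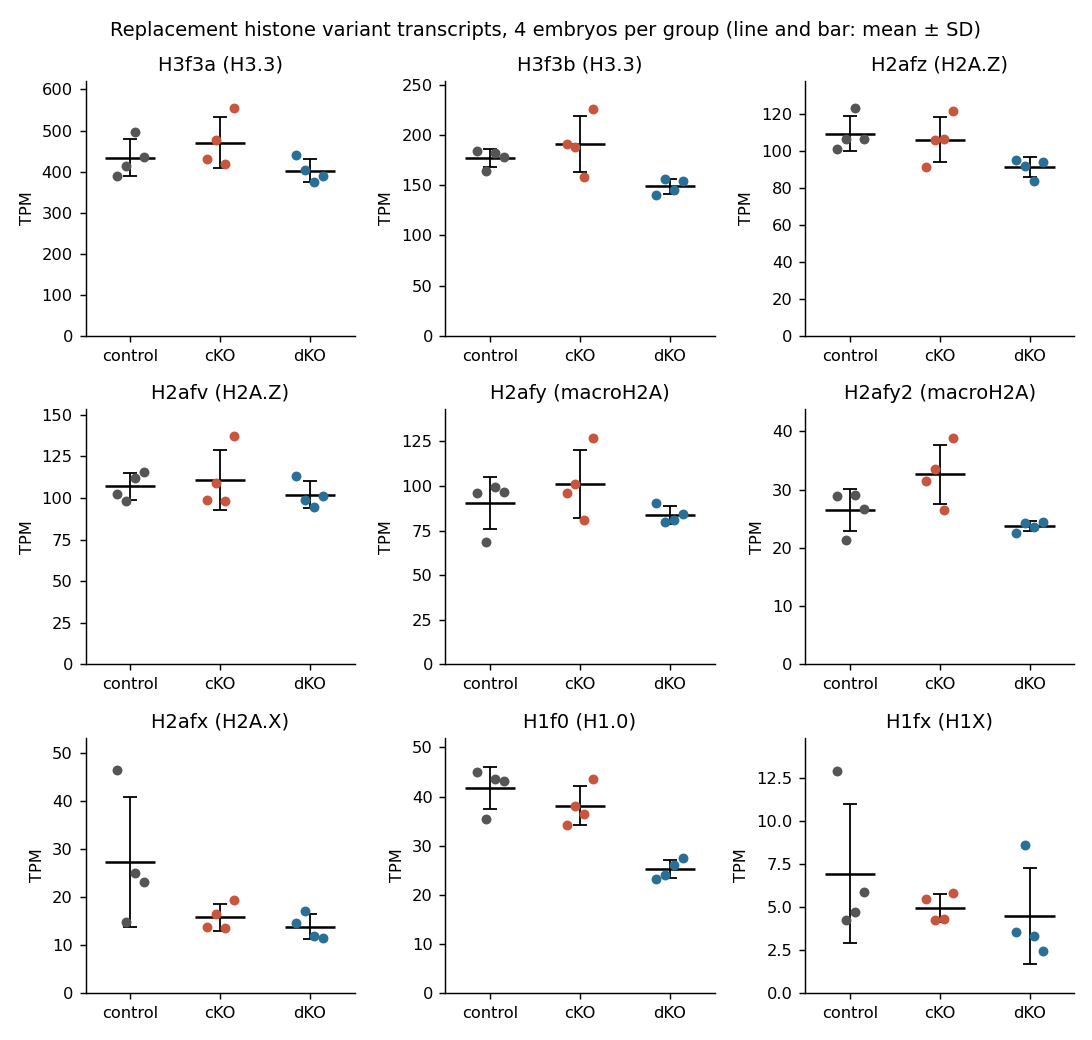
TPM of the 9 variants in each embryo (points), with the group mean and SD (black), axes from 0, 4 embryos per group. H1f0 lies between 23.3 and 27.5 TPM in dKO, under every control and cKO embryo, and control 1 stands above the other controls in H2afx and H1fx.

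H3.3, the replication-independent form of H3, came mostly from H3f3a (ENSMUSG00000060743, chromosome 1, 180800832 to 180813943, minus strand; this and later gene positions are GENCODE M21 on GRCm38). H3f3a stood at 390.4, 414, 496 and 436 TPM in the control embryos, 430.2, 477, 419 and 555 in cKO, and 441, 404, 374 and 390.1 in dKO. All 3 groups overlapped. The cKO mean was 470.1 ± 61.9 and the dKO mean 402 ± 28.5 TPM. The difference from control was 0.11 as deposited (95% interval -0.14 to 0.36) and -0.14 centred (-0.35 to 0.077) in cKO, and -0.11 (-0.36 to 0.14) and -0.087 (-0.30 to 0.13) in dKO. None was called, and the sign in cKO turned with the scale.

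H3f3b (ENSMUSG00000016559, chromosome 11, 116021912 to 116027962, minus strand) encodes the same protein from a different gene. Its values were 184, 164, 182 and 178 TPM in the controls, 191, 188, 158 and 226 in the cKO embryos, and 140.4, 156, 146 and 154 in the dKO embryos. Every dKO embryo was below every control and cKO embryo. On the log2 scale dKO differed from control by -0.25 as deposited (-0.48 to -0.013) and -0.23 centred (-0.40 to -0.054), with adjusted p = 0.102 in limma after centring. Against cKO the deposited difference of -0.34 was called (adjusted p = 0.025), and the centred one of -0.075 (-0.25 to 0.097) was not (adjusted p = 0.606). The deposited call was lost without cKO 2 (adjusted p = 0.0572), cKO 4 (0.0609), dKO 1 (0.0554) or dKO 3 (0.0535). The ratio of H3f3a to H3f3b, which no library scaling can move, averaged 2.46 ± 0.25 for the controls, 2.47 ± 0.17 for cKO and 2.70 ± 0.29 for dKO, and all groups overlapped. The exact permutation p was 0.886 for cKO and 0.314 for dKO against control, and 0.257 between the mutants.

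The H3.3 values have a limit in their sequence. Stretches of 50 bases of H3f3a occur in 38 processed pseudogenes (12.7% of its stretches), and H3f3c, one of them, was listed at a mean of 236 TPM over the 12 embryos. H3f3a made up 54.6% to 59.2% of the sum over itself and those copies in each embryo. For H3f3b 8.398% of stretches were shared, and its pseudogene Gm6485 was listed at 63.7 TPM. How reads were divided among such copies is not given in the sources used here. Summing H3f3a, H3f3b, H2afz and H2afy2 each with its pseudogenes changed no call of a variant on either scale. H2afx was left out of this summing, although it too shares stretches with genes annotated as pseudogenes. H1f0 shares no stretch and had nothing to sum.

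H2A.Z replaces H2A next to the start sites of genes and comes from H2afz and H2afv. H2afz (ENSMUSG00000037894, chromosome 3, 137864487 to 137866922, plus strand) was at 101, 106, 123 and 107 TPM in the controls, 91.0, 106, 106 and 121 in the cKO embryos, and 95.2, 91.9, 83.7 and 94.2 in the dKO embryos. The dKO embryos were all below the controls, and the cKO embryos overlapped both. The difference from control was -0.045 as deposited (-0.27 to 0.18) and -0.29 centred (-0.49 to -0.098) in cKO, with an adjusted p of 0.0777 in limma for the latter. In dKO it was -0.26 (-0.48 to -0.033) and -0.24 (-0.43 to -0.040), with an adjusted p of 0.131 after centring. With all embryos no difference of H2afz was called. Without control 1 the centred difference in cKO was -0.35 (adjusted p = 0.0464), and without cKO 1 the deposited difference between dKO and cKO was -0.28 (adjusted p = 0.0432). Shared stretches made up 30.5% of H2afz, and the processed pseudogene Gm8203 was listed at 147 TPM, above H2afz itself.

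H2afv (ENSMUSG00000041126, chromosome 11, 6427229 to 6444443, minus strand), the second H2A.Z gene, shared no 50-base stretch with any other gene. It was at 102, 97.9, 112 and 116 TPM in the controls, 98.9, 109, 98.3 and 137 in the cKO embryos, and 113, 98.9, 94.6 and 101 in the dKO embryos, with all groups overlapping. Its differences from control were 0.041 as deposited (-0.21 to 0.29) and -0.21 centred (-0.41 to -0.011) in cKO and -0.068 (-0.32 to 0.18) and -0.048 (-0.25 to 0.15) in dKO, none of them called. The ratio of H2afz to H2afv averaged 1.02 ± 0.085 for the controls, 0.96 ± 0.085 for cKO and 0.90 ± 0.043 for dKO. The exact permutation p for dKO against control was 0.0857, and 0.343 after adjustment over the 12 ratio tests.

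MacroH2A carries a large globular domain behind its H2A part. H2afy (ENSMUSG00000015937, chromosome 13, 56073619 to 56136361, minus strand) was at 96.3, 68.5, 99.5 and 96.6 TPM in the controls, 96.0, 101, 81.0 and 127 in the cKO embryos, and 90.3, 79.6, 80.8 and 84.4 in the dKO embryos. Control 2 was the lowest embryo of the 12, and the groups overlapped. No difference of H2afy was called, with deposited values of 0.16 (-0.16 to 0.48) in cKO and -0.092 (-0.41 to 0.23) in dKO, and centred values of -0.088 (-0.34 to 0.16) and -0.072 (-0.32 to 0.18).

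H2afy2 (ENSMUSG00000020086, chromosome 10, 61738665 to 61784147, minus strand) was at 28.9, 21.3, 29.0 and 26.6 TPM in the controls, 31.5, 33.5, 26.6 and 38.9 in the cKO embryos, and 22.6, 24.3, 23.6 and 24.5 in the dKO embryos. Every dKO embryo was below every cKO embryo, and both mutant groups overlapped control. Against cKO, dKO differed by -0.43 as deposited (-0.69 to -0.16, adjusted p = 0.017 in limma) and by -0.16 centred (-0.35 to 0.032, adjusted p = 0.298). From control it differed by 0.29 (0.025 to 0.55) in cKO and -0.14 (-0.40 to 0.13) in dKO as deposited, and by 0.041 (-0.15 to 0.23) and -0.12 (-0.31 to 0.072) after centring, with no call. Without cKO 3 the deposited difference in cKO was 0.38 (adjusted p = 0.0283 in limma). The ratio of H2afy to H2afy2 was 3.34, 3.22, 3.43 and 3.63 in the controls, 3.05, 3.01, 3.05 and 3.26 in the cKO embryos, and 3.99, 3.27, 3.43 and 3.45 in the dKO embryos. All dKO embryos were above all cKO embryos, by a mean of 0.19 in the log2 ratio, with an exact permutation p of 0.0286, the smallest that 4 against 4 embryos can give, and an adjusted p of 0.343 over 12 tests.

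**Figure D3:**
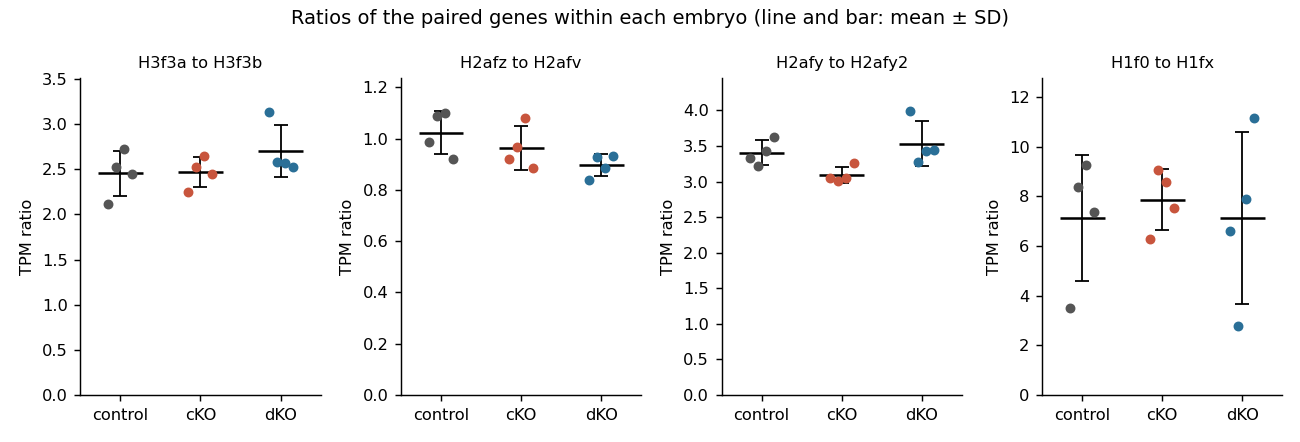
TPM ratios within each embryo for 4 pairs of variant genes (points), with mean and SD, axes from 0. The groups overlap in 11 of the 12 comparisons, the exception being H2afy to H2afy2 between dKO and cKO, and the H1f0 to H1fx ratio spreads from 2.79 to 11.2.

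H2A.X becomes the mark of DNA breaks when ATM, ATR or DNA-PK phosphorylate its tail. Its gene H2afx (ENSMUSG00000049932, chromosome 9, 44334694 to 44336077, plus strand) was at 46.6, 14.8, 25.0 and 23.1 TPM in the controls, 13.7, 16.5, 13.51 and 19.4 in the cKO embryos, and 14.7, 17.0, 11.9 and 11.6 in the dKO embryos. Controls ranged widely, with control 1 far above and control 2 inside the range of both mutants. The means were 27.4 ± 13.6, 15.8 ± 2.80 and 13.8 ± 2.58 TPM. The difference between cKO and control was -0.66 as deposited (-1.23 to -0.083, adjusted p = 0.069) and -0.91 centred (-1.42 to -0.39, adjusted p = 0.041 in limma), so it passed on 1 scale only. Without control 2 the deposited difference was called too (-0.90, adjusted p = 0.0192), and without control 1 it was -0.37 (adjusted p = 0.146). Of the 12 centred fits that each left out 1 embryo, 4 kept that call: without control 1 (-0.64, adjusted p = 0.0461), control 2 (-1.13, adjusted p = 0.00892), dKO 1 (0.0466) or dKO 2 (0.0442). The other 8 gave an adjusted p from 0.0509 to 0.108. In dKO the difference from control was -0.84 as deposited (-1.42 to -0.27, adjusted p = 0.090) and -0.82 centred (-1.34 to -0.30, adjusted p = 0.053). Without control 2 the dKO difference was called on both scales (-1.09, adjusted p = 0.0234, and -1.04, adjusted p = 0.0140). The mutants differed from each other by -0.18 (-0.76 to 0.39) as deposited and 0.084 (-0.43 to 0.60) centred.

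Of the 50-base stretches of H2afx, 6.14% were also in 21 other genes, nearly all of them replication-dependent H2A genes, whose levels summed to a mean of 3718 TPM. Of 66 replication-dependent genes tested, 54 fell in cKO. The part of shared reads in the H2afx values was not tested. Its stem-loop, shown with the sequences, is the other feature it has in common with them.

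H1.0, the linker histone of quiet and differentiating cells, was the variant that changed. H1f0 (ENSMUSG00000096210, chromosome 15, 79028450 to 79030504, plus strand) was at 45.0, 35.5, 43.5 and 43.2 TPM in the controls, 34.3, 38.1, 36.5 and 43.5 in the cKO embryos, and 23.3, 24.0, 26.1 and 27.5 in the dKO embryos. Every dKO embryo was below every embryo of the other groups, and control and cKO overlapped. The means were 41.8 ± 4.26, 38.1 ± 3.94 and 25.2 ± 1.91 TPM, so the dKO mean was 60.3% of control. H1f0 fell in dKO against control by 0.70 on the log2 scale as deposited (95% interval -0.93 to -0.48, adjusted p = 0.00229 in limma) and by 0.69 after centring (-0.85 to -0.52, adjusted p = 0.000358). All 12 fits without 1 embryo kept the call on both scales.

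Against cKO, H1f0 fell in dKO by 0.58 as deposited (-0.80 to -0.35, adjusted p = 0.0018 in limma) and by 0.31 centred (-0.47 to -0.14, adjusted p = 0.0364), the centred difference being the smaller. The deposited call was kept in all 12 fits without 1 embryo. The centred call was kept in 4 of them, without control 1, control 2, control 3 or dKO 4 (adjusted p from 0.0278 to 0.0499), and lost without control 4, any cKO embryo, dKO 1, dKO 2 or dKO 3 (0.0558 to 0.0948). Between cKO and control the difference was -0.13 as deposited (-0.35 to 0.092, adjusted p = 0.316) and -0.38 centred (-0.54 to -0.21, adjusted p = 0.011), the latter called in all 12 fits without 1 embryo. In these bulk samples, fewer cells of a type and less RNA per cell cannot be told apart.

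H1fx (ENSMUSG00000044927, chromosome 6, 87980421 to 87981637, minus strand), for the linker histone H1X, was the lowest and most uneven. It was at 12.9, 4.23, 4.69 and 5.88 TPM in the controls, 5.46, 4.21, 4.27 and 5.78 in the cKO embryos, and 3.52, 8.60, 3.305 and 2.46 in the dKO embryos. Control 1 and dKO 2 stood above their groups, which overlapped. The differences from control were -0.31 (-1.02 to 0.40) and -0.54 (-1.25 to 0.18) as deposited in cKO and dKO, and -0.56 (-1.24 to 0.12) and -0.52 (-1.20 to 0.17) centred, none called, with intervals that reach from a difference under -1 to above 0 in each of these fits. The ratio of H1f0 to H1fx was 7.12 ± 2.55, 7.86 ± 1.23 and 7.12 ± 3.46, with no exact permutation p under 0.657.

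As a sum, the replication-dependent genes behaved otherwise than the 9 variants. Their 69 symbols (those starting Hist1h to Hist4h) summed to 24448, 17014, 21656 and 20721 TPM in the controls, 11742, 11949, 11719 and 15909 in the cKO embryos, and 13032, 13296, 12848 and 14039 in the dKO embryos. Every mutant embryo was below every control, and the means were 61.2% of control in cKO and 63.5% in dKO. The sums of the 9 variants were 1007, 927, 1114 and 1031 TPM in the controls, 992, 1073, 943 and 1274 in the cKO embryos, and 944, 905, 844 and 889.9 in the dKO embryos. The cKO sums overlapped control, at 105% of its mean, and the dKO sums reached 87.8% and overlapped only through dKO 1. The contrast of sums does not hold for each variant. The median difference of the 66 replication-dependent genes tested was -0.66 as deposited and -0.91 centred in cKO, and -0.65 and -0.64 in dKO. H2afx was close to that median in cKO (-0.66 and -0.91, called on 1 scale only). H1f0 was close to it in dKO (-0.70 and -0.69). Of the 66 genes, 54 fell in cKO and 42 fell in dKO against control on both scales. Hist1h4i and Hist2h2be were the exceptions: both were called higher in dKO on both scales, and in cKO as deposited only. Between the mutants none was called as deposited (5 had an unadjusted p under 0.05), and 12 were called higher in dKO after centring. Classes carry paralogs of near-identical sequence, so reads may have been divided among them, and Hist1h2aj, the H2A gene with the most TPM, is annotated as a pseudogene in GENCODE M21.

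Of each class, the gene with the highest mean is set beside variants of the same type. Hist1h3i, a canonical H3, fell in cKO by 0.95 as deposited and 1.19 centred (adjusted p = 0.000164 in limma after centring), beside the differences of 0.11 and -0.14 for H3f3a. Hist1h2aj fell by 1.03 and 1.28 (adjusted p = 4.05e-05), where H2afz differed by -0.045 and -0.29 and H2afx by -0.66 and -0.91. Hist1h1b, a linker histone of dividing cells, fell by 0.68 and 0.93 in cKO and by 0.79 and 0.77 in dKO, where H1f0 differed by -0.13 and -0.38 in cKO and fell by 0.70 and 0.69 in dKO. Between the mutants Hist1h1b was at 430.1 ± 72.7 TPM in cKO and 396 ± 41.7 in dKO with overlapping values, while H1f0 was separate between them. Hist1h2bq fell by 0.54 and 0.79 in cKO and by 0.74 and 0.72 in dKO. Hist1h4k, at 1834 ± 331 TPM in control and 1356 ± 292 in cKO, was called lower in cKO after centring only. H2B and H4 have no member among the 9 variants.

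The share of all histone TPM that came from the 9 variants was 3.96%, 5.17%, 4.89% and 4.74% in the controls, 7.79%, 8.24%, 7.45% and 7.42% in the cKO embryos, and 6.76%, 6.37%, 6.16% and 5.96% in the dKO embryos. The 3 groups did not overlap, with cKO highest and control lowest. By type, H3.3 genes held 14.5 ± 2.44% of H3 TPM in controls, 24.2 ± 1.04% in cKO embryos and 18.8 ± 1.29% in dKO embryos. The 5 variant H2A genes held 6.39 ± 0.75%, 11.96 ± 0.39% and 9.18 ± 0.57% of H2A TPM. The linker variants H1f0 and H1fx held 3.12 ± 0.32%, 4.14 ± 0.27% and 2.89 ± 0.32% of H1 TPM. For the linker type the dKO share overlapped control, where for H3 and H2A every dKO embryo was above every control. These shares describe transcripts and carry no test, since the genes were chosen as a group with results known.

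**Figure D4:**
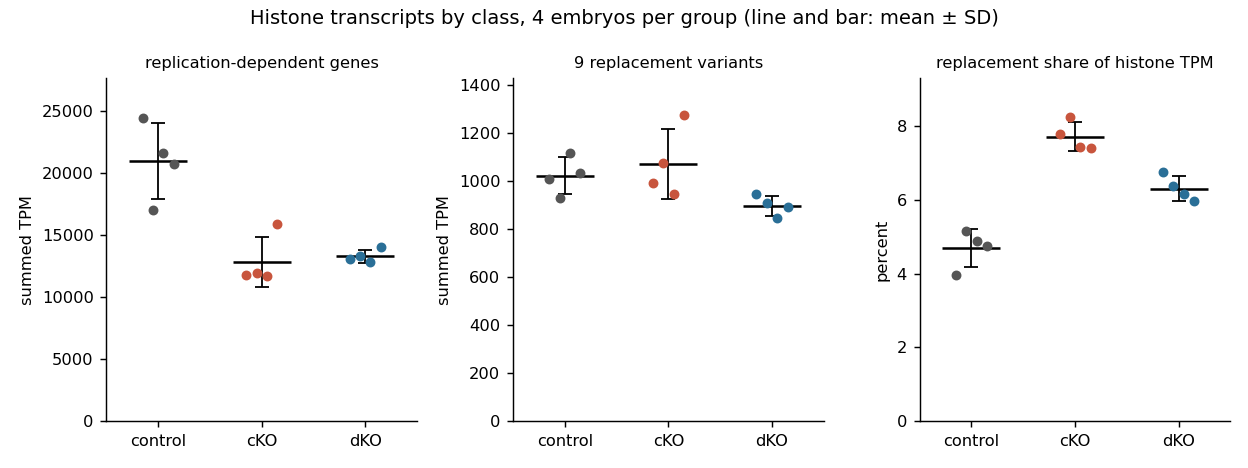
Summed TPM of the 69 replication-dependent genes (left) and of the 9 variants (middle), and the variants' percent of both (right), for each embryo with mean and SD, axes from 0. The left panel separates control from both mutants, the middle one does not, and the right panel has 3 groups that do not overlap.

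The 4 lists that follow hold genes that handle histones, the replication-coupled chaperones among them. In dKO against control, 3 lists had 1 gene each that fell on both scales, as did 3.3% of all genes tested. No list had a gene called on both scales in cKO against control. In dKO against cKO, 1 gene of the H2A.X list fell on both scales, as did 3.83% of all genes. Of 8 genes for H3.3 deposition (HIRA complex, Asf1a, Daxx, Atrx and Dek), none changed in cKO on both scales (an unadjusted p under 0.05 in limma for 3 as deposited and 1 centred) and 1 fell in dKO: Dek, an H3.3 chaperone, at 102 TPM in control and 66.2 in dKO, by 0.63 as deposited (adjusted p = 0.0377 in limma) and 0.61 centred (adjusted p = 0.0232). Of 8 replication-coupled chaperones, none changed in cKO on both scales, with 2 called lower after centring (an unadjusted p under 0.05 for 0 as deposited and 5 centred), and 1 fell in dKO: Nasp, which holds H3 and H4 outside of chromatin, from 134 to 85.8 TPM, by 0.64 as deposited and 0.62 centred (adjusted p = 0.00289). Of 15 genes of the H2A.Z exchange complexes, such as Srcap, Ep400 and the H2A.Z chaperone Anp32e, none changed on both scales in any comparison, with an unadjusted p under 0.05 in limma for 7, 3 and 10 as deposited and 2, 3 and 2 centred. As deposited 6 were higher in cKO, at a median of 0.23 beside 0.25 for all genes. Of 13 genes for the kinases, readers and phosphatases of H2A.X, none changed in cKO on both scales (an unadjusted p under 0.05 for 5 as deposited and 4 centred) and 1 fell in dKO against control, Atr, by 0.38 and 0.36, from 5.35 to 3.86 TPM (adjusted p = 0.0377 after centring). Of 9 further variant genes 2 passed the filter, Cenpa and H2afj, and neither changed on both scales against control.

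**Figure D5:**
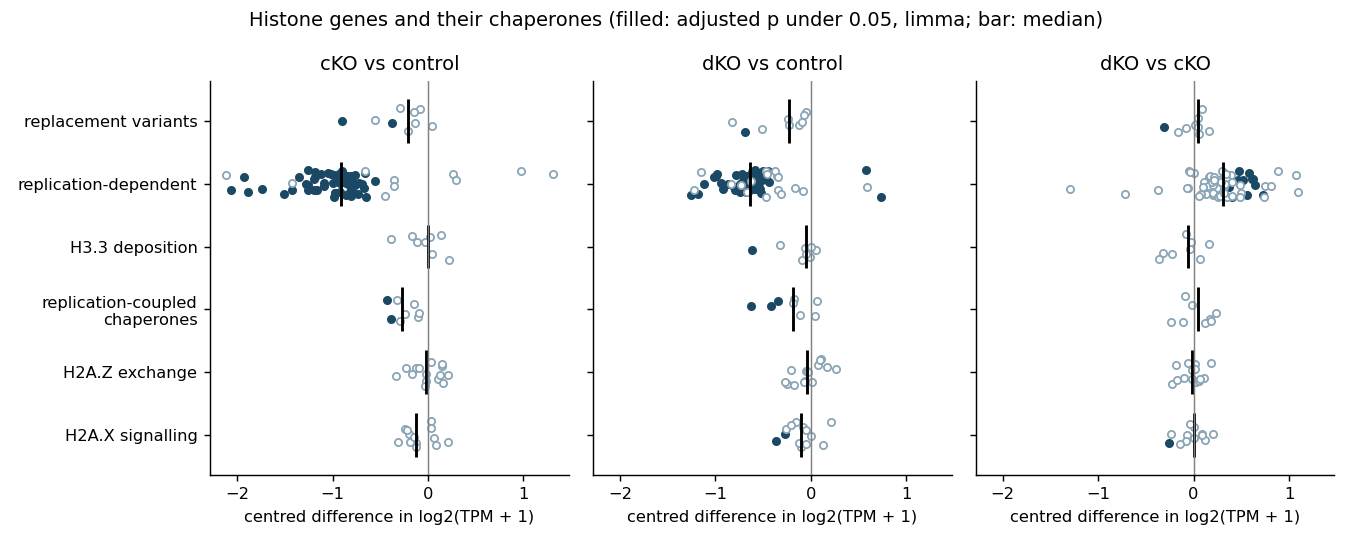
Centred differences in log2(TPM + 1) for the tested genes of 6 lists in 3 comparisons, 1 point per gene, filled where the adjusted p in limma was under 0.05, with the list median as a bar. Replication-dependent genes lie mostly left of 0 against control (54 of 66 fell in cKO), and the 9 variants lie between -0.91 and 0.041 in cKO and between -0.82 and -0.048 in dKO.

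Marker genes of the cells in the tissue also differed between the groups. Of 14 proliferation genes, 2 fell in cKO (Pcna, by 0.37 and 0.62, and Tyms, by 0.28 and 0.53, as deposited and centred) and 3 fell in dKO, and the list summed to 702 to 828 TPM in the controls, 599 to 849.8 in cKO embryos and 526 to 643 in dKO embryos. Of 12 neuron genes, 1 rose in cKO (Gap43, a growth cone protein, by 1.01 and 0.76), 1 fell in dKO against control and 4 fell in dKO against cKO. The neuron sums were 256 to 282, 354 to 432 and 181 to 278 TPM. Of 8 microglia genes 7 rose in cKO, among them the complement genes C1qa (by 2.07 and 1.83) and C1qb (by 1.94 and 1.69), with sums of 12.6 to 15.1 TPM in the controls, 47.5 to 71.6 in cKO embryos and 14.3 to 20.7 in dKO embryos. Of 6 vessel genes tested 3 rose in cKO, Kdr by 0.81 and 0.56 and Cldn5 by 0.67 and 0.42 among them. Of 8 blood genes tested none was called in any comparison in limma (at most 2 had an unadjusted p under 0.05), with sums from 2051 to 3469 TPM. Of 10 radial glia genes 1 fell in cKO (Hes5, by 0.46 and 0.71) and none rose on both scales, while the list summed to 279 to 325 TPM in the controls, 323 to 389 in cKO embryos and 303 to 309 in dKO embryos. Of 8 intermediate progenitor genes 1 fell in cKO (Neurog2, by 0.49 and 0.74), with sums of 54.9 to 73.8, 56.7 to 76.4 and 55.3 to 67.3 TPM. Eomes, on that list and on the pallium list, fell in dKO by 0.57 and 0.55. All 10 p53 target genes rose in cKO, Eda2r by 2.78 and 2.53 and Ccng1 by 2.39 and 2.14, and 10 of 10 fell in dKO against cKO. The part of these shifts in the H1f0 and H2afx values was not tested.

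The genes most like each variant across the 12 libraries were sought among the 5023 protein-coding genes averaging 5 TPM or more, by Pearson's r on centred values, as a description. For H1f0 they included Pdcd4 (r = 0.975) and Mxd3 (0.945). For H2afx they were Emx1 (0.952), the transcription factor gene whose regulatory sequence drives the Cre here, Ttyh1 (0.921) and Hes5 (0.920), a Notch target of radial glia. For H2afz they were Spc25 (0.947), of the kinetochore, Lsm8 (0.939) and Cenpp (0.938). H2afv was closest to Sinhcaf (0.943), H2afy to Dpp3 (0.951), H2afy2 to Tubb5 (0.921), H3f3a to Sumo2 (0.961), H3f3b to Nt5c3b (0.941) and H1fx to Ttyh3 (0.945). All points share the libraries and the 3 genotypes, and the best of 5023 genes over 12 points is high in any case. Control 1, the highest of the 12 embryos in H2afx at 46.6 TPM, also had the highest control sums of the pallium and radial glia lists. These sums were 94.4 and 325 TPM, and the lists hold Emx1 and Hes5. The part of this 1 embryo in the r values of H2afx was not tested.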

How the data were processed

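RNA from 12 embryos, 4 per genotype, was profiled as total RNA. The authors deposited 1 table of TPM values by gene symbol for each embryo. The unit was inferred from the values, since each table sums to 1000000 and has no header. The submitters' processing notes name HISAT2 and mm10. The quantification tool, annotation and treatment of shared reads are not given in the sources used here. TPM keeps no depth, so no counting interval or floor is given.

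Groups came from the genotype labels. The members, lists and tests were chosen with earlier results of these data known. log2(TPM + 1) was fitted with limma 3.58.1 (lmFit, eBayes with trend) in R 4.3.3 for the 11764 genes averaging 1 TPM or more, all 3 groups in 1 fit, with Benjamini-Hochberg adjustment over all of them at 0.05. Differences on this scale understate the change of low genes. In the companion fit, each library was centred: the median over genes of its deviation from the average library was subtracted. Ratios were compared by exact two-sided permutation over 70 assignments, adjusted over 12 tests. Named genes were, of each list, the 2 tested genes with the largest centred change among those called on both scales in cKO against control, or in dKO against control where there were none in cKO, with all 9 variants, Rnu11, Trp53, the gene of highest mean per replication-dependent class and the 3 most similar genes per variant, of which all are given for H2afx and H2afz and part for the other variants. Hist1h4i and Hist2h2be, Cenpa and H2afj were named after their values were seen. Hist1h2ai and Hist1h2ah, named by the same rule, are given with the other observations.

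Gene positions and transcripts came from GENCODE M21 (54183 of the 54735 symbols matched), and promoters from RefSeq. Alternatives were other scalings, filters and pseudocounts, 2-group fits, the replicate number as a block and leaving out each embryo. The fits were tested on simulated data. Plots were drawn with matplotlib 3.10.9.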

Additional observations from a re-analysis of the deposited data

Results flagged for a closer look

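Of 42 groups of 4 embryos examined (9 variants, 4 ratios and the share of histone TPM, in 3 genotypes), 3 had an embryo whose gap to the nearest other, divided by the range of the group, passed the 95% limit that Dixon's test sets for 4 values, and chance gives about 1 in 20 such groups. H2afy in control had a gap of 0.895 of the range, with control 2 at 68.5 TPM below the others. The ratio of H3f3a to H3f3b in dKO had a gap of 0.914, with dKO 1 at 3.14. The ratio of H2afy to H2afy2 in cKO had a gap of 0.840, with cKO 4 at 3.26, still below every dKO embryo.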

How the results depend on the processing

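Limits: TPM gives no depth, and 4 embryos per group limit the precision. The scale decides several counts. Variants called in cKO against control numbered 0 as deposited, 2 with centring, protein-coding rescaling, quantile normalization or centring with pseudogene copies summed, and 1 with centring and the replicate block. In dKO against cKO they numbered 3 as deposited and 1 with centring, protein-coding rescaling or centred summed copies. Quantile normalization gave 2 there, H1f0 and H3f3b (adjusted p = 0.0485 in limma for H3f3b). Centring with the replicate block gave 0, where H1f0 had an adjusted p of 0.0574 in limma. The deposited call of H3f3b in that comparison was lost with the replicate block (adjusted p = 0.0512) and in a fit of only the 2 groups (0.0526). All genes called in cKO against control, dKO against control and dKO against cKO numbered 4163, 610 and 4636 as deposited, 786, 992 and 698 with centring (with or without summed copies), 1539, 1080 and 1139 with protein-coding rescaling, 810, 1029 and 798 with quantile normalization, and 1900, 294 and 2220 at a mean of at least 5 TPM. The replicate block gave 2979, 409 and 3608, and 502, 598 and 415 with centring. Same-numbered embryos did not deviate together (r from -0.095 to 0.075 over 12 pairs), so the numbers were not taken as pairs. Centred leave-one-out fits, centring with the block and summed copies were chosen after seeing the data.

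Some differences that were not called turned sign with the scale. In cKO against control, H3f3a was -0.14 centred, -0.044 with protein-coding rescaling and -0.11 centred with summed copies, H3f3b -0.15, -0.057 and -0.12, H2afv -0.21 centred, -0.11 with rescaling and -0.063 with quantile normalization, and H2afy -0.088 centred. In dKO against cKO, H2afx was 0.084 centred, 0.025 with rescaling and 0.087 with quantile normalization, H2afz 0.059 centred, 0.012 with rescaling and 0.018 with centred summed copies, H2afv 0.16, 0.11 and 0.028 (centred, rescaled, quantile), H2afy 0.015 centred, H3f3a 0.050, 0.0049 and 0.017 (centred, rescaled, summed copies), and H1fx 0.045 centred and 0.064 with quantile normalization. The replicate block with centring gave the centred values.

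Leaving out 1 embryo, on both scales together, gave for all genes 458 to 4356 calls in cKO against control, 344 to 1035 in dKO against control and 253 to 4836 in dKO against cKO, and for the variants 0 to 3, 1 to 2 and 0 to 4. Differences in cKO against control ranged from -0.35 to 0.025 for H2afz, -0.27 to 0.094 for H2afv, -0.19 to 0.26 for H2afy, -0.031 to 0.38 for H2afy2, -0.21 to 0.18 for H3f3a and -0.19 to 0.19 for H3f3b. In dKO against cKO they ranged from -0.29 to 0.15 for H2afx, -0.28 to 0.10 for H2afz, -0.16 to 0.22 for H2afv, -0.35 to 0.081 for H2afy, -0.27 to 0.089 for H3f3a and -0.53 to 0.22 for H1fx. Log2 ratios that turned sign were H3f3a to H3f3b in cKO against control (-0.056 to 0.065), H2afy to H2afy2 in dKO against control (-0.0089 to 0.087), and H1f0 to H1fx in cKO against control (-0.093 to 0.38), dKO against control (-0.39 to 0.32) and dKO against cKO (-0.56 to 0.10). The cause of these turns was not tested. No ratio passed 0.05 after adjustment under any alternative run, but most of these runs could not have given a pass. A comparison that lost 1 embryo gives an exact permutation p of 0.0571 at the least. The replicate block, run on ratios by sign flips, gives 0.125 at the least. With 4 against 4 embryos, a lone test at the smallest permutation p of 0.0286 has an adjusted p of 0.343. The shares of histone TPM moved by less than their SD under each alternative.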

Other observations

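The replication-dependent H2A genes held the largest centred decreases among the histone genes called on both scales in cKO against control. Hist1h2ai averaged 212 ± 144 TPM in control (SD) and 51.6 ± 5.69 in cKO. It fell by 1.81 as deposited and 2.06 centred (adjusted p = 0.00158 in limma). Hist1h2ah averaged 70.6 ± 33.2 and 20.2 ± 6.42 TPM and fell by 1.68 and 1.93 (adjusted p = 0.00428). Control 1 was the highest embryo for both genes, at 424 and 116 TPM, and raised both control means. Both share 50-base stretches with H2afx.

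Genes that overlap a variant on the other strand or nearby were listed low, except for the lincRNA Gm17275 beside H3f3a at a mean of 13.49 TPM. Gm5577 over H1fx was at 1.05 TPM, and Gm49544 over H1f0 at 0.212.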
